A study of Mus musculus with 78 samples.

Results

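HA-EZH1 chromatin immunoprecipitation libraries collected 28 h after synchronization were compared with those collected at 24 h, 3 biological replicates at each time, which makes 6 of the 78 samples of the series. The series profiled HA-EZH1, Bio-EZH1, SUZ12 and H3K27me3 by ChIP-seq at 12, 16, 20, 24, 28 and 32 h in C2C12 myotubes, with 3 replicates each and 72 peak lists in all. C2C12 are mouse myoblasts of an established line, differentiated here into myotubes, whose cultures were synchronized by 1 h in 50% horse serum before they were returned to 2% horse serum. By the labels, both groups shared this treatment and differed in the hour of collection. A further 6 HA input samples were not analysed here.

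The labels of the 28 h and 24 h samples give the line as C3H/C2C12 and name neither an antibody nor a modified line. The study describes a C2C12 line with a stable knockdown of Ezh1 in which doxycycline induces an HA-tagged EZH1α, but the labels do not say whether these libraries came from it. The peak lists hold no expression values, so the labelled cell type was not checked against its markers. A list holds the peaks called in 1 bulk library, so a place occupied in fewer cells and a place occupied more weakly in every cell cannot be told apart. The number of reads behind each list is unknown, no counting interval can be given, and the spread between replicates is the only error. With 3 libraries at each time, the smallest p that the exact two-sided permutation test allows is 0.1, so no difference between the times could pass 0.05.

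Members were places with a called peak in all 3 replicates of one time and in no replicate of the other. Merging the peaks of the 6 libraries gave 35730 regions, of which 611 (1.71%) were found at 28 h only, 1848 (5.17%) at 24 h only and 83 (0.232%) in all 6 libraries. A promoter was taken as 3 kb on either side of a transcription start site (TSS). Of 53843 annotated gene records, 510 promoters (0.947%) had a peak at 28 h only, 269 (0.5%) at 24 h only and 89 (0.165%) in all 6 libraries. Among 21755 protein-coding genes the numbers were 373 (1.71%) at 28 h only, 67 (0.308%) at 24 h only and 51 (0.234%) in all 6. These counts describe the rule that chose the members, and no test applies to them. Counts rose when 1 library of their own time was left out, since fewer libraries then had to hold a peak. Regions at 24 h only numbered 3230 without 24 h replicate 1, 2911 without replicate 2 and 3201 without replicate 3. Promoters at 24 h only numbered 430 without 24 h replicate 1. Regions at 28 h only numbered 907, 836 and 867 without 28 h replicates 1, 2 and 3.

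EZH1 is a catalytic subunit of Polycomb repressive complex 2 (PRC2), which methylates lysine 27 of histone H3 and keeps developmental genes silent. SUZ12 is a core subunit of PRC2, and H3K27me3 is the mark it leaves. Housekeeping promoters in mammals commonly lie in CpG-rich DNA, and many are divergent, with a pair of genes reading away from a shared start. ZNF143 and its partner THAP11 are sequence-specific factors known to bind such promoters through an element that begins with the letters ACTACA.

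Sequences around the summits of peaks among the 8 most enriched over background, for each kind of region, are shown first, picked with their motif matches known, because the 28 h and 24 h regions differed in the short motifs they carried. Each is 200 bases of the plus strand of mm10 centred on the summit, and capitals mark, on either strand, matches to ACTACA, TACANNTCC (the core of the ACTACA-type element), AAGATGGC (YY1), TGANTCA (AP-1) and CAGCTG (the E-box of myogenic factors). ACTACA and TACANNTCC overlap, and were added to the search after recurring letters had been seen in these regions. The first 6 windows belong to 28 h only regions.
Calr3 and 1700030K09Rik, shared promoter, chr8:72443707-72443906: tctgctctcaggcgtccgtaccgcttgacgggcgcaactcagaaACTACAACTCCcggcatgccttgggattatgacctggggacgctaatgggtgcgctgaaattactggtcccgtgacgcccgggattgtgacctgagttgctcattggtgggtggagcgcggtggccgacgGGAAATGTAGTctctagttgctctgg
Alg14, intron near the start, chr3:121291955-121292154: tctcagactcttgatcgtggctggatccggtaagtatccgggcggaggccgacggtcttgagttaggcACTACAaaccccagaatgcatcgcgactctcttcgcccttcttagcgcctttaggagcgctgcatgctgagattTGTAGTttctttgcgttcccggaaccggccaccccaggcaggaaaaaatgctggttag
Zscan22, summit upstream of the start, chr7:12897626-12897825: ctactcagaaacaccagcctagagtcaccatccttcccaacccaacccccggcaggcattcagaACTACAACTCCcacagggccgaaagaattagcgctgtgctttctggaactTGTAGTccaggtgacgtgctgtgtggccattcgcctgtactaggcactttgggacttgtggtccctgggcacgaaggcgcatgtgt
Car11, intron, chr7:45700869-45701068: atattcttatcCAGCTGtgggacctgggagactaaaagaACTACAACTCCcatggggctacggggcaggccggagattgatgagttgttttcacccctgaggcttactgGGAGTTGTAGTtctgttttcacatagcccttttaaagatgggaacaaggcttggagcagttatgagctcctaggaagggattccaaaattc
Zfp383, exon, promoter region shared with Zfp27, chr7:29908421-29908620: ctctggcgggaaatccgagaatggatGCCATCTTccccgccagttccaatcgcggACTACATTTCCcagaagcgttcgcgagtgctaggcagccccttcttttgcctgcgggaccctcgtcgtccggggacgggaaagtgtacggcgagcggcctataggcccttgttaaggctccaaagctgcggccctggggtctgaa
Ier5l, intergenic, 21.7 kb away, chr2:30495863-30496062: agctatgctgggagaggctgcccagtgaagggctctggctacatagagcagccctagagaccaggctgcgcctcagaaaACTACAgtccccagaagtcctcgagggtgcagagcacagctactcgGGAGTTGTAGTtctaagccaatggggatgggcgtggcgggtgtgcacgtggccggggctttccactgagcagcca
The next 3 belong to 24 h only regions.
Kcnh8, intron, 208.2 kb from the start, chr17:52810809-52811008: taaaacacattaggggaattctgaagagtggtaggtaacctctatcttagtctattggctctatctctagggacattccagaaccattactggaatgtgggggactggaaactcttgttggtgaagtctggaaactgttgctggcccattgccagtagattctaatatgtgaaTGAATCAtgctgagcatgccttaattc
Tnfsf11, intergenic, chr14:78244942-78245141: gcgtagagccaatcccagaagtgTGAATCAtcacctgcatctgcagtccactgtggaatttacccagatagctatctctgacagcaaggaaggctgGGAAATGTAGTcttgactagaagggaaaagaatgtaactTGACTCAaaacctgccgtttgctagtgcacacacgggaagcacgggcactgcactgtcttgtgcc
Nat2, summit upstream of the start, chr8:67494622-67494821: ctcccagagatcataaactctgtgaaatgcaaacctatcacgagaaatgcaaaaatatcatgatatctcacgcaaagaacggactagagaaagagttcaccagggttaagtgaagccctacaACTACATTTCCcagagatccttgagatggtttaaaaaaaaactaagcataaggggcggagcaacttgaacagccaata
The last 2 belong to regions with a peak in all 6 libraries.
Nudt13, summit upstream of the start, chr14:20294523-20294722: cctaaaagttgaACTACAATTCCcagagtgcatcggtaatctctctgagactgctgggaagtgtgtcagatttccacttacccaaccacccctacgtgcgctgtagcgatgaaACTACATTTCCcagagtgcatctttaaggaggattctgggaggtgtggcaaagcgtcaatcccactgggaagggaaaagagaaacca
Mmachc and Ccdc163, between the starts, chr4:116708336-116708535: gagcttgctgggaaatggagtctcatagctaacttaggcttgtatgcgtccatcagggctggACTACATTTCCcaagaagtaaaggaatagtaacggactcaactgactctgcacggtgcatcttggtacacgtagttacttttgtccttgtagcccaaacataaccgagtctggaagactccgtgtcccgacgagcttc
All of the 28 h only windows shown hold ACTACA on at least 1 strand. Among the 24 h only windows shown, the Kcnh8 window holds 1 AP-1 match, the Tnfsf11 window holds 2 beside an ACTACA-type core, and the Nat2 window holds an ACTACA-type core with no AP-1 match. Of the 8 most enriched 24 h only regions, 2 held the AP-1 site and 4 the ACTACA-type core, so the 3 shown are not typical of the 8 in their AP-1 matches.

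HA-EZH1 had far fewer peaks at 28 h than at 24 h, and those it had lay closer to gene starts. Replicates 1 to 3 held 2347, 2602 and 2524 peaks at 28 h, against 12791, 15008 and 12433 at 24 h. The libraries of the times did not overlap, and 28 h averaged 2491 ± 131 peaks against 13411 ± 1395 for 24 h (SD, n = 3 per time; exact permutation p = 0.1, adjusted p = 0.144 over 13 measures). The share of peaks whose summit lay within 1 kb of a TSS was 27.5%, 25.8% and 26.4% at 28 h, against 3.46%, 3.26% and 3.58% at 24 h. Again no library of one time reached the range of the other (exact permutation p = 0.1, adjusted p = 0.144).

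The number of promoters touched by a peak differed little when every gene record was counted, and differed widely for protein-coding genes. At 28 h, 1138, 1204 and 1165 promoters had a peak, against 1156, 1293 and 1179 at 24 h, and the libraries overlapped (exact permutation p = 0.6). The mean difference of -40 promoters turned positive under several other settings given in the closing section. Protein-coding promoters with a peak numbered 760 ± 18 at 28 h, with a range of 742 to 778, and 312 ± 16 at 24 h, with a range of 294 to 325 (mean ± SD over 3 libraries each; exact permutation p = 0.1). The ratio of 28 h to 24 h was 0.186 for peaks and 2.43 for protein-coding promoters.

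**Figure D1:**
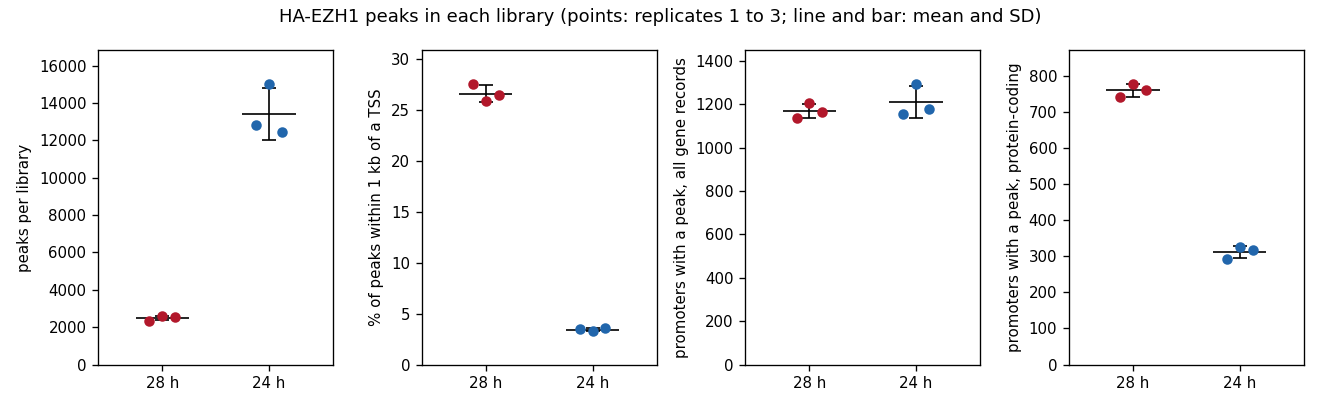
Peaks per library, percent of peaks within 1 kb of a TSS, and numbers of all and of protein-coding promoters with a peak, for 28 h (red) and 24 h (blue); points are the 3 replicates, horizontal lines the means and bars the SD. The 28 h libraries lie below the 24 h libraries in number of peaks (2491 and 13411 on average), above them in the share within 1 kb (26.6% and 3.43%) and in protein-coding promoters (760 and 312), and overlap them in all promoters.

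Peaks called at 28 h were of similar length and slightly higher fold enrichment. Fold enrichment is the ratio of a peak's signal to the background that MACS2 models in the same library, and it is not calibrated between libraries. Its median was 3.50, 3.46 and 3.42 at 28 h, against 3.07, 2.91 and 2.99 at 24 h (exact permutation p = 0.1). When the 2000 peaks with the lowest q-values in each library were taken, this order turned, with a difference of -0.113. That cut was unequal, since it was made from 2347 to 2602 peaks at 28 h and from 12433 to 15008 at 24 h. Median peak length was 465 to 480 bp at 28 h and 459 to 487 bp at 24 h, and the ranges overlapped. All peaks together covered 1.31 to 1.48 Mb at 28 h and 7.28 to 9.15 Mb at 24 h.

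The DNA under the peaks also differed in composition. In 300 bp around summits the GC content averaged 52.3% at 28 h and 42.3% at 24 h, and the observed over expected ratio of CpG was 0.336 at 28 h and 0.165 at 24 h (exact permutation p = 0.1 for each). These ranges did not overlap between times. Bases masked as repeats made up 11.1% to 11.3% of the windows at 28 h and 23.0% to 24.2% at 24 h.

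Among the regions themselves, 298 of the 611 found at 28 h only (48.8%) lay within 1 kb of a TSS, against 84 of the 1848 found at 24 h only (4.55%). Within 100 bp lay 113 (18.5%) at 28 h only and 12 (0.649%) at 24 h only. The median distance to a TSS was 1300 bp for 28 h only regions and 22200 bp for 24 h only regions. A distance of 10 to 100 kb from a TSS was found for 26.2% of the 28 h only regions and 65.3% of the 24 h only regions. Exons held 28.5% of the 28 h only summits and 4.55% of the 24 h only summits. Introns held 38.5% at 28 h only and 49.5% at 24 h only, and intergenic DNA 33.1% at 28 h only and 46.0% at 24 h only. Of the regions in all 6 libraries, 50 of 83 (60.2%) lay within 1 kb.

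**Figure D2:**
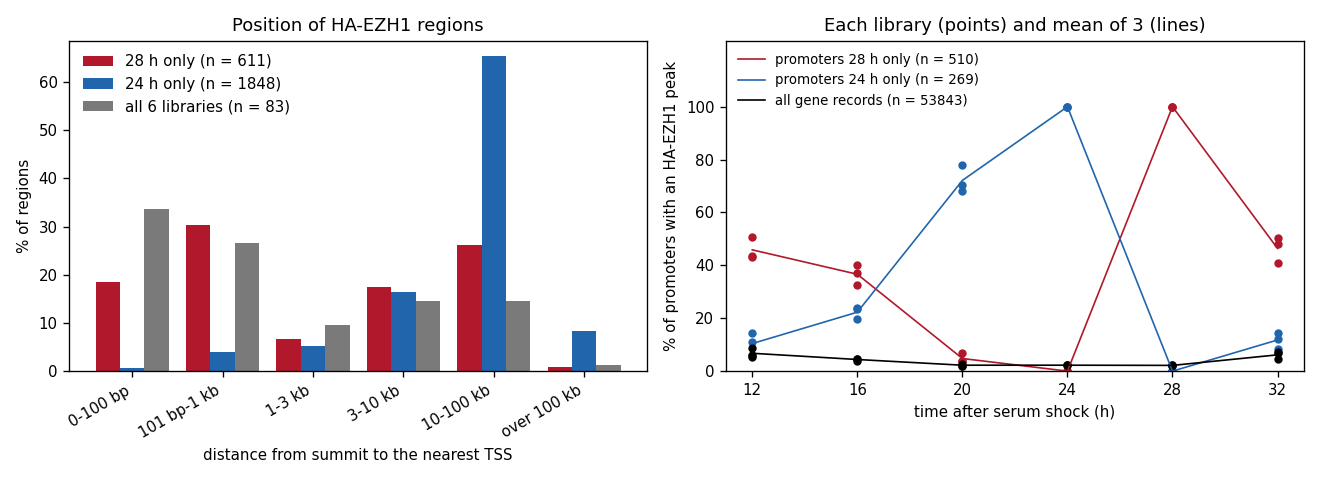
Left, percent of regions by distance from the summit to the nearest TSS for 28 h only (red), 24 h only (blue) and all 6 libraries (grey); right, percent of 28 h only, 24 h only and all promoters with an HA-EZH1 peak in each library by time after serum shock, with points for replicates and lines for means. Within 100 bp of a TSS lie 18.5% of the 28 h only and 0.649% of the 24 h only regions. In the right panel the rule fixes the 28 h only and 24 h only promoters at 0% or 100% at 28 h and 24 h. The values of all promoters are not fixed.

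Chromosomes did not share the regions alike. Chromosome 15, which makes up 3.95% of the genome, held 40 (6.55%) of the 28 h only regions and 406 (22.0%) of the 24 h only regions. Of all peaks it held 8.56% at 28 h and 19.5% at 24 h in HA-EZH1, and 5.0% at 28 h and 5.12% at 24 h in Bio-EZH1. Chromosome 7, with 5.52% of the genome, held 43 (7.04%) of the 28 h only and 14 (0.758%) of the 24 h only regions. With chromosome 15 left out, 571 regions at 28 h only and 1442 at 24 h only remained. The input libraries were not analysed here, and the part of copy number in this pattern was not tested.

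The 15 protein-coding promoters at 28 h only with the highest fold enrichment belonged to genes of varied function. Alg14, a subunit of the enzyme that adds the second sugar to the lipid precursor of N-glycans, had 11.4-, 10.4- and 9.84-fold enrichment at 28 h and no peak in any 24 h library. The promoter shared by Calr3, a testis relative of the chaperone calreticulin, and 1700030K09Rik had 8.92, 10.7 and 10.8. Zscan22, a zinc finger protein with a SCAN domain, had 9.29, 9.87 and 9.48. The windows of all of these promoters are printed above with their ACTACA matches.

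Ccdc191, which encodes a coiled-coil protein, had 7.68-, 9.20- and 11.6-fold enrichment at 28 h. Car11, a carbonic anhydrase relative that lacks the enzyme activity, had 9.88, 9.75 and 8.78, and its promoter was the only one of the 15 protein-coding promoters named here that also had Bio-EZH1, SUZ12 and H3K27me3 peaks in all replicates at 28 h. The zinc finger genes Zfp27 and Zfp383 shared a peak of 9.02, 8.44 and 8.95. None of these had a called peak at 24 h, which is not the same as no signal, since the lists hold nothing below the calling threshold.

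Several of the most enriched peaks lay between divergent genes. Vipas39, a partner of VPS33B in endosomal sorting, and Ahsa1, an activator of the HSP90 ATPase, shared a peak of 8.56-, 7.36- and 10.1-fold. Ranbp10, a RAN-binding protein, and Tsnaxip1 shared one of 8.42, 6.97 and 9.09. Shld1, Dffa and Pnpla6, by contrast, had no divergent protein-coding start within 1 kb. Shld1, a subunit of the shieldin complex that protects broken DNA ends, had 7.83, 8.12 and 9.18. Dffa, the inhibitor of the caspase-activated DNase, had 8.21, 8.52 and 7.30, and Pnpla6, a lysophospholipase of the endoplasmic reticulum, had 9.02, 6.74 and 8.04.

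Of the 373 protein-coding promoters at 28 h only, 70 (18.8%) belonged to a gene whose start lay within 1 kb of a divergent protein-coding start, against 0 of 67 at 24 h only and 1489 (6.84%) of all protein-coding genes. Partners of a pair share their peak, and the 510 promoters at 28 h only fell into 336 separate windows. CpG observed over expected exceeded 0.6 in 196 (52.5%) of the protein-coding promoters at 28 h only, in 2 (2.99%) at 24 h only and in 46.3% of all protein-coding promoters, counted in 500 bp on either side of the TSS. Protein-coding genes made up 73.1% of the 28 h only promoters, 24.9% of the 24 h only promoters and 40.4% of all gene records.

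Promoters with peaks in all 6 libraries were ranked by their mean fold enrichment at 28 h, so no direction can be read from those at the top of that ranking. Brca1, which acts in homologous recombination, and Nbr1, an autophagy receptor, share the divergent promoter that led the ranking, with 17.7-, 17.5- and 18.3-fold at 28 h against 4.25, 3.69 and 3.83 at 24 h. Mmachc, which processes vitamin B12, and Ccdc163 shared 11.7, 16.5 and 14.8 at 28 h against 3.62, 3.61 and 4.37 at 24 h. Nudt13, a Nudix hydrolase, had 15.2, 12.8 and 13.1 at 28 h against 10.1, 8.72 and 7.48 at 24 h. The U1 small nuclear RNA gene Rnu1a1 was lower at 28 h than at 24 h without overlap, with 9.78, 8.52 and 10.5 at 28 h against 12.8, 16.9 and 12.5 at 24 h. Over all 89 promoters of this kind, with no ranking, the library medians were 5.29 to 5.42 at 28 h and 3.09 to 3.6 at 24 h, beside 3.42 to 3.50 at 28 h and 2.91 to 3.07 at 24 h for all peaks.

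**Figure D3:**
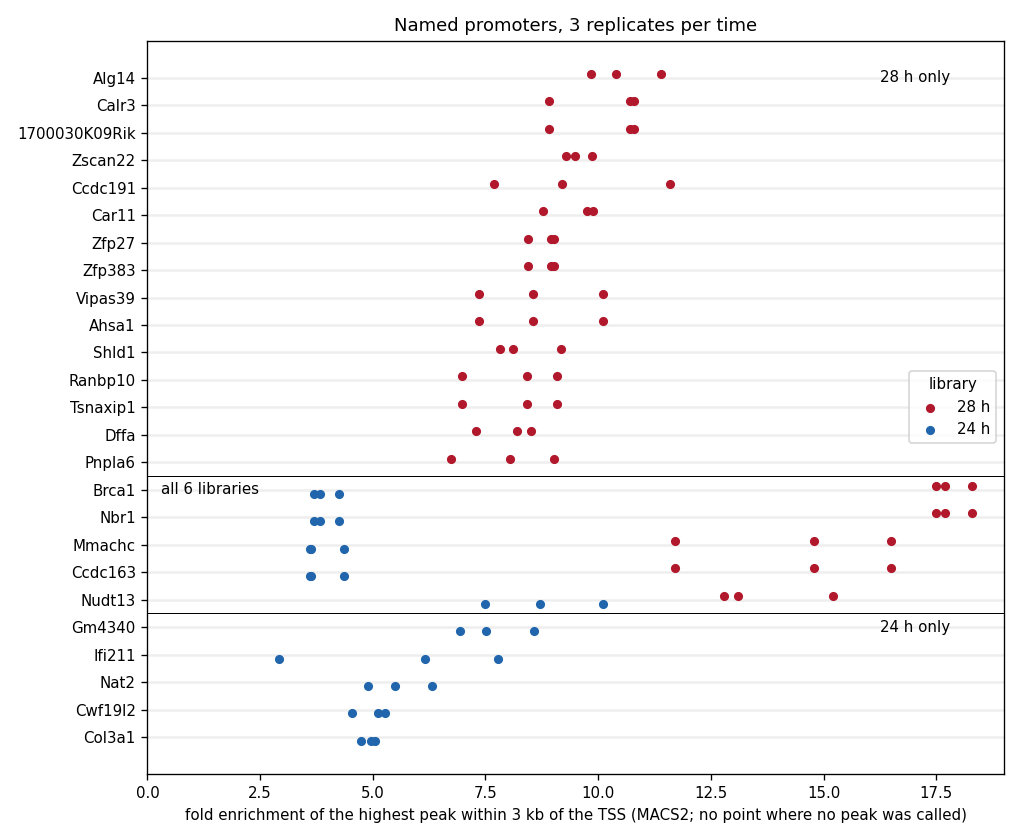
Fold enrichment (MACS2) of the highest peak within 3 kb of the TSS, in each of 3 replicates at 28 h (red) and at 24 h (blue), for the 15 most enriched protein-coding promoters at 28 h only, the promoters with peaks in all 6 libraries that had the highest 28 h means and the top 5 at 24 h only; no point is drawn where no peak was called. Alg14 lies between 9.84 and 11.4 at 28 h, and Brca1 with Nbr1 between 17.5 and 18.3 at 28 h and between 3.69 and 4.25 at 24 h.

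The weakest member of the 28 h only promoters was the one shared by Erh and Slc39a9, with 1.73-, 1.80- and 2.22-fold enrichment. Just outside the rule, Zfp672 and Sh3bp5l shared 12.4, 11.3 and 15.9 at 28 h but also 3.05 in replicate 1 at 24 h. A peak in all 3 replicates at 28 h and in 1 at 24 h was found at 37 promoters, and a peak in 2 replicates at 28 h and in none at 24 h at 344, among them Pter with 4.3 and 6.0 in the 2 replicates that had one. On the other side, 36 promoters had all 3 replicates at 24 h with 1 at 28 h, and 413 had 2 at 24 h with none at 28 h.

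Gene lists that describe cellular functions were counted by how many of their promoters were at 28 h only or at 24 h only, beside 1.71% at 28 h only and 0.308% at 24 h only of all protein-coding genes. Of 41 lists, 31 had at least 1 promoter at 28 h only and 10 had at least 1 at 24 h only. The mitochondrial ribosome had the highest share, with 10 of 77 (13%) at 28 h only and 0 at 24 h only. Mrpl47, a large subunit protein, had 6.49-, 5.44- and 6.82-fold enrichment in a peak it shares with Ndufb5, and Mrpl46 and the small subunit gene Mrps11 shared 4.61, 5.68 and 5.25. Mrpl11 had 5.10, 3.52 and 4.79.

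Genes of the respiratory chain and ATP synthase had 9 of 117 (7.69%) at 28 h only and 1 at 24 h only. Ndufa9, a complex I subunit, had 6.84-, 5.57- and 5.77-fold enrichment at 28 h. Uqcrb, a complex III subunit, had 4.27, 8.03 and 4.64, a spread in which replicate 2 stood apart. One of the 9, Atp5l2-ps, and the 24 h only member Ndufb4c are annotated as processed pseudogenes. Mitochondrial import added Timm22, the carrier translocase of the inner membrane, with 4.69, 5.71 and 5.65, and Tomm40l, with 2.88, 2.73 and 3.32, as 2 of 43.

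Cytosolic ribosomal proteins had 5 of 85 (5.88%) at 28 h only and 0 at 24 h only. Rpl4 had 4.65-, 4.63- and 4.93-fold enrichment, Rpl6 3.53, 3.61 and 2.90, and Rps3 3.34, 2.61 and 3.18. Several such genes host small nucleolar RNAs, a list of named genes with 15 of 151 (9.93%) at 28 h only and 0 at 24 h only. Over all 1507 records annotated as snoRNA the numbers were 23 (1.53%) at 28 h only and 5 (0.332%) at 24 h only, beside 0.947% and 0.5% of all gene records. Snord118, the U8 RNA needed to mature the large ribosomal subunit RNAs, had 5.73, 5.39 and 5.80, and Snord16a lies under the Rpl4 peak, so such members do not count separate events. Translation factors had 2 of 78 and aminoacyl-tRNA synthetases 2 of 37, the mitochondrial Lars2 with 3.88, 3.71 and 3.68 and the cytosolic Farsa with 2.55, 2.51 and 2.57.

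Chaperones had 7 of 106 (6.60%) at 28 h only and 0 at 24 h only. Hspb6, a small heat shock protein abundant in muscle, had 9.0-, 6.60- and 7.25-fold enrichment. Hsph1, an exchange factor for HSP70, had 4.51, 6.10 and 7.05, and Hsp90b1, the HSP90 of the endoplasmic reticulum, had 4.19, 3.81 and 4.06. Membrane traffic had 10 of 199 (5.03%) at 28 h only and 0 at 24 h only. Its leading member Vps41, a subunit of the HOPS tether of lysosomes, had 6.57, 6.47 and 8.63. Coat proteins followed, with Ap2s1 of the AP2 adaptor at 5.54, 4.39 and 4.64, Sec23b of COPII at 4.55, 5.12 and 4.23 and Cope of COPI at 3.76, 3.86 and 4.09.

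Zinc finger proteins were the largest group by number, with 23 of 493 (4.67%) at 28 h only, 0 at 24 h only and 6 in all 6 libraries. Beside Zscan22, Zfp27 and Zfp383, Zfp780b had 6.53-, 6.82- and 4.89-fold enrichment. Splicing and mRNA binding had 7 of 183 (3.83%) at 28 h only. Prpf4, a protein of the U4/U6 small nuclear ribonucleoprotein, shared 8.02, 6.43 and 7.73 with Cdc26, a subunit of the anaphase-promoting complex. Chromatin modifiers had 3 of 128, led by Smarcal1, an annealing helicase of stalled forks, with 8.82, 6.63 and 7.21, followed by Brd8 of the NuA4 acetyltransferase with 6.78, 6.02 and 6.32. The general transcription factors gave Med27 of Mediator, with 4.24, 5.02 and 4.64, and Gtf2e1 of TFIIE, with 4.22, 4.29 and 5.05, as 2 of 91 at 28 h only, with 3 more (Taf6, Med24 and Gtf2h4) in all 6 libraries.

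Protein turnover gave 2 of 54 proteasome genes (3.70%) and 3 of 358 ubiquitin enzymes (0.838%) at 28 h only. Psmb5, a catalytic subunit of the proteasome, had 4.18-, 4.58- and 4.46-fold enrichment. Solute carriers had 4 of 350 (1.14%), among them Slc38a9, a lysosomal arginine sensor, with 9.70, 5.46 and 5.78, and Slc38a7 with 7.25, 7.16 and 6.76. The cell cycle list had 2 of 133 (1.5%), and Cdc123, its member beside Cdc26, is known for assembly of the translation factor eIF2. Mdh1, the cytosolic malate dehydrogenase, was the only one of 49 genes of glycolysis and central metabolism, with 3.19, 3.66 and 5.11.

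**Figure D4:**
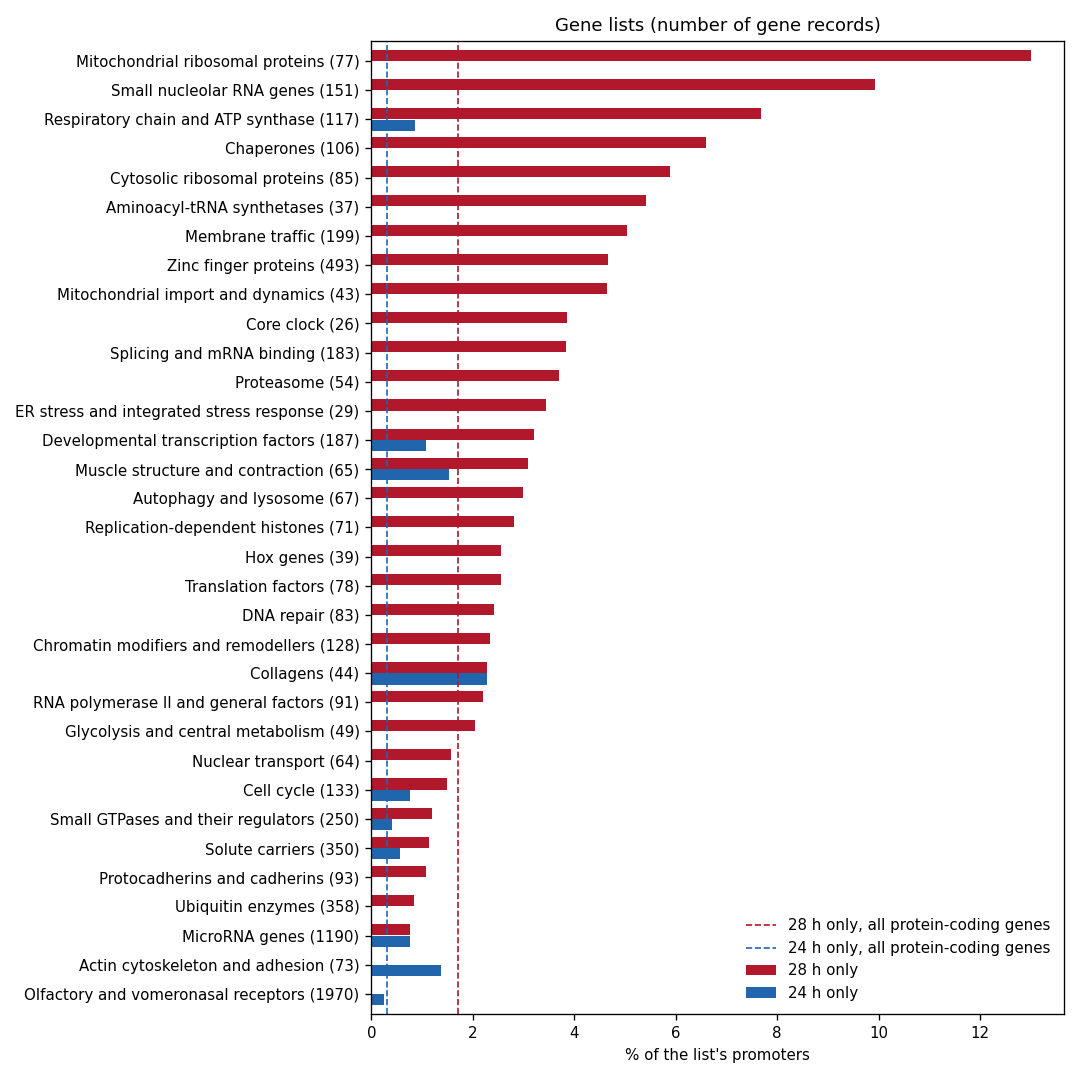
Percent of the promoters of each gene list with an HA-EZH1 peak at 28 h only (red bars) and at 24 h only (blue bars), number of gene records in brackets, with dashed lines at the shares over all protein-coding genes (1.71% and 0.308%); the 8 lists with neither are not drawn. Mitochondrial ribosomal proteins reach 13% and the named small nucleolar RNA genes 9.93% at 28 h only, with none at 24 h only; over all snoRNA records the share at 28 h only was 1.53%.

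Of the core clock, a list of 26 genes, Nr1d1 alone had a peak in any of the 6 libraries. Nr1d1 encodes REV-ERBα, a repressor of Bmal1, and had 3.02-, 2.90- and 2.66-fold enrichment at 28 h and none at 24 h. It also had a peak in 1 of 3 libraries at 12 h, 16 h and 32 h each, so it passed the rule at 28 h with values below the 28 h medians of all peaks. Muscle structure genes had 2 of 65 at 28 h only, Ryr1, the calcium release channel of the sarcoplasmic reticulum, with 3.50, 3.65 and 3.88, and Myl6 with 3.12, 2.92 and 3.92. Ttn, the giant sarcomere protein titin, was at 24 h only with 3.65, 4.01 and 3.57. Cdh15, the M-cadherin of myogenic cells, had 4.04, 4.62 and 4.10 at 28 h only, while none of 21 myogenic regulators was at either time only.

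Developmental transcription factors had 6 of 187 (3.21%) at 28 h only and 2 at 24 h only. Pax5, known from B cells, had 4.59-, 4.30- and 4.91-fold enrichment at 28 h, and Pax8, known from thyroid and kidney, 3.87, 4.05 and 3.46. Runx1 had 3.91, 2.78 and 3.44, and neither Bio-EZH1, SUZ12 nor H3K27me3 was at its promoter in all replicates at 28 h. Nkx2-5, a heart factor, had 3.12, 4.17 and 2.31, and Hoxb13, the single member among 39 Hox genes, 4.43, 4.94 and 5.11. At 24 h only, Runx2, the regulator of bone cells, had 3.75, 4.02 and 3.98 and Neurod6 2.43, 3.98 and 3.15. No promoter at 28 h only came from the lists of PRC2 (13 genes), PRC1 (20), immediate early genes (37), Wnt, Bmp, Fgf and hedgehog ligands (67), the MAP kinase pathway (61), potassium channels (99), neurotransmitter receptors (69), actin and adhesion (73), myogenic regulators or olfactory and vomeronasal receptors (1970). Apart from the olfactory and vomeronasal receptors, each of these lists is too small beside the 1.71% of all protein-coding genes for its absence to be read.

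Library medians of fold enrichment were 3.89 to 4.03 at the 28 h only promoters and 3.22 to 3.27 at the 24 h only promoters. Over all peaks they were 3.42 to 3.50 at 28 h and 2.91 to 3.07 at 24 h. Fold enrichment is not calibrated between libraries, so these medians do not compare the promoters themselves. By annotation, the 28 h only promoters held 373 protein-coding, 25 lincRNA and 14 processed pseudogene records, and the 24 h only promoters 67, 50 and 48. Gm4340 led with 7.51-, 8.58- and 6.94-fold enrichment at 24 h. Ifi211, an interferon-inducible gene, had 2.93, 7.78 and 6.16, a wide spread in which replicate 1 was low. Nat2, an arylamine acetyltransferase, had 6.31, 5.49 and 4.89, Cwf19l2 5.12, 4.55 and 5.28, and Col3a1, a fibrillar collagen, 4.95, 5.05 and 4.73. The list of named microRNA genes had 9 of 1190 at 28 h only and 9 at 24 h only, and all 2196 records annotated as miRNA had 14 (0.638%) at 28 h only and 20 (0.911%) at 24 h only, beside 0.947% and 0.5% of all gene records. Mir214 at 24 h only had 4.83, 3.28 and 3.99.

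The 28 h only promoters were next followed through the other HA-EZH1 libraries, which the rule did not use. Of the 510, a peak in all 3 replicates was found for 174 promoters (34.1%) at 12 h, for 145 promoters (28.4%) at 16 h, for 10 promoters (1.96%) at 20 h and for 182 promoters (35.7%) at 32 h. Over all gene records these shares were 3.61%, 2.44%, 0.858% and 3.43% in the same order of hours. The 269 promoters at 24 h only gave 7 promoters (2.60%) at 12 h, then 24 promoters (8.92%) at 16 h, 146 promoters (54.3%) at 20 h and 11 promoters (4.09%) at 32 h. The most frequent pattern among 28 h only promoters with another time was 12 h, 16 h and 32 h together, at 116 promoters, and 285 had no other time with all 3 replicates.

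No peak in any library of the 4 other times was found at 145 (28.4%) of the 28 h only promoters, 97 of them protein-coding. The most enriched of these was Zfp940, a zinc finger gene, with 5.36-, 5.76- and 6.15-fold enrichment. Zkscan14 and Zkscan5, zinc finger genes with a shared peak, had 5.46, 4.86 and 4.88, and Isg20, an interferon-induced exonuclease, had 4.89, 5.27 and 4.48. By position, all HA-EZH1 peaks showed a like course, with 61.6% to 67.5% within 1 kb of a TSS at 12 h and 23.1% to 33.4% at 16 h. At 20 h the share was 3.77% to 4.81%, and at 32 h it was 49.2% to 59.3%.

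Over all gene records, the 28 h only promoters carried Bio-EZH1 and SUZ12 at 28 h in shares near those of all promoters. They carried H3K27me3 in a lower share, and within protein-coding genes Bio-EZH1 too. Bio-EZH1 peaks in all 3 replicates were found at 27 (5.29%), SUZ12 at 46 (9.02%) and H3K27me3 at 74 (14.5%), beside 5.40%, 9.64% and 21.4% of all promoters. None of the 3 was found at 424 (83.1%), beside 77.7% of all promoters. At 24 h the same promoters had Bio-EZH1 at 33 (6.47%), SUZ12 at 37 (7.25%) and H3K27me3 at 71 (13.9%). The shares of all promoters at 24 h were 7.06%, 7.59% and 21.4%. Among protein-coding promoters, Bio-EZH1 at 28 h was in a lower share, at 17 of the 373 at 28 h only, beside 1966 of all 21755. Protein-coding genes made up 73.1% of the 28 h only promoters and 40.4% of all gene records, so the shares over all records are not like for like. The 27 with Bio-EZH1 at 28 h also had SUZ12 and H3K27me3 at that time, and 17 of them were protein-coding. They included the developmental factors Hoxb13, Pax5, Pax8, Nkx2-5, Nkx2-6, Tbx5, Prdm12 and Gfi1 as well as Car11, Col2a1 and Igfbp5. Bio-EZH1 was not particular to 28 h there, since Hoxb13, Pax5, Pax8, Nkx2-5, Gfi1, Car11 and Col2a1 also had it in all replicates at 24 h. No protein-coding gene of the mitochondrial ribosome or the respiratory chain was among these 27. Those lists have 10 and 9 members at 28 h only, too few beside a share of 5.29% for this absence to be read.

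Over all peaks, 7.20% to 8.16% overlapped a Bio-EZH1 peak of the same time at 28 h and 4.07% to 4.98% at 24 h, ranges that did not overlap (exact permutation p = 0.1, adjusted p = 0.144). Overlap with SUZ12 averaged 10.1% at 28 h and 10.4% at 24 h, and with H3K27me3 15.6% at 28 h and 15.2% at 24 h. For both of these the libraries of the times overlapped (exact permutation p = 0.7 for SUZ12 and 0.5 for H3K27me3).

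Away from promoters, the strongest 28 h only region lay between genes on chromosome 2, at chr2:30495720-30496590 and 21.7 kb from Ier5l, with 10.8-, 10.9- and 10.7-fold enrichment. An intergenic region at chr12:29290371-29291521, 237.1 kb from Myt1l, had 9.85, 11.1 and 9.27. Both also had peaks in all replicates at 12 h, 16 h and 32 h. Regions within introns, nearest to Prdm11 (chr2:93031279-93032705) and Khk (chr5:30927914-30928381), were found in all 3 replicates at no other time and had 6.26, 9.45 and 6.43 near Prdm11 and 6.69, 7.91 and 6.40 near Khk. At 24 h only, the region in an intron of Kcnh8, a potassium channel gene, at chr17:52810577-52811360 had 8.02, 4.44 and 6.15, and one near Map4 (chr9:109952979-109954188) had 6.48, 6.58 and 5.52. Both of these were present at 12, 16 and 20 h.

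Short motifs were counted in 300 bp around summits and in flanks of the same length shifted by 1 kb to either side, searching both strands. TACANNTCC, the core of the ACTACA-type element, was in 104 of the 611 28 h only regions (17%), against 2.86% of their flanks. In 24 h only regions it was in 68 of 1848 (3.68%), against 4.46% of flanks. Windows at the TSS of all protein-coding genes held it in 4.73%. Among the 28 h only regions it was found in 80 of 298 (26.8%) within 1 kb of a TSS and in 19 of 272 (6.99%) beyond 3 kb, and in 28 of 83 regions (33.7%) with a peak in all 6 libraries.

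Library by library, the core was in 9.80%, 9.65% and 8.91% of peaks at 28 h, against 4.21%, 4.14% and 4.31% at 24 h (exact permutation p = 0.1, adjusted p = 0.113 over 17 motifs). The core was added to the search after recurring letters had been seen in these regions, so these p-values are no independent test of it. The libraries of the times did not overlap. At 12 h it was in 11.5% to 16.2% of peaks, at 20 h in 4.19% to 4.79% and at 32 h in 11.3% to 14.8%, while Bio-EZH1 peaks held it in 3.05% to 3.49% at 28 h and 3.27% to 3.44% at 24 h. The printed Calr3 and Nudt13 windows each hold the core in 2 places. ACTACA itself was in each of the 8 most enriched 28 h only regions, in 33 of the top 50 (66.0%) and in 30 of the 152 with the lowest fold enrichment (19.7%). In 24 h only regions ACTACA was in 3 of the 8 most enriched, in 12 of the top 50 (24.0%) and in 12.1% of the 462 with the lowest fold enrichment, and the core was in 4 of the top 8 and 7 of the top 50 (14%). Over all 28 h only regions ACTACA was in 23.6%, against 12.1% of their flanks. Over all 24 h only regions ACTACA was in 13.2%, against 14.2% of flanks, and 9.59% of protein-coding promoters held it.

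Other motifs separated the times in either direction. AAGATGGC, the YY1 site, was in 47 (7.69%) of the 28 h only regions, against 1.79% at 24 h only and 3.53% of protein-coding promoters. GGGCGG, the GC box, was in 20.6% at 28 h only, against 1.84% at 24 h only, and in 45.9% of protein-coding promoters, and CCGGAAG, an ETS site, in 10.5% at 28 h only, against 0.703% at 24 h only, and 11.5% of protein-coding promoters. TGANTCA, the AP-1 site printed in the Kcnh8 and Tnfsf11 windows, was in 45 (7.36%) of the 28 h only regions, against 363 (19.6%) of those at 24 h only, where flanks held it in 11.4%. Over all peaks the gap was smaller, with 11%, 11.6% and 11.6% of peaks at 28 h against 14.4%, 13.5% and 14% at 24 h, without overlap (exact permutation p = 0.1). Its share of protein-coding promoters was 5.98%.

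CAGCTG, the E-box of myogenic factors, was more frequent in distal than in proximal regions at 28 h only, in 81 of 272 (29.8%) beyond 3 kb and in 16.4% within 1 kb of a TSS. Flanks of the distal regions held it in 16.9%, and protein-coding promoters in 17.4%. At 24 h only CAGCTG was in 17.1% of regions, against 11.5% of their flanks, and beyond 3 kb in 17.3%, against 11.1% of flanks. By library CAGCTG was in 24.1%, 23.8% and 24.3% of peaks at 28 h, against 14.3%, 13.9% and 13.8% at 24 h, without overlap (exact permutation p = 0.1). CACGTG, the E-box of CLOCK and BMAL1, was in 5.28%, 5.53% and 5.07% of peaks at 28 h, against 2.63%, 2.55% and 2.69% at 24 h, and in 7.49% of protein-coding promoters. Among the 28 h only regions CACGTG was in 5.89%, beside 4.50% of their flanks.

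**Figure D5:**
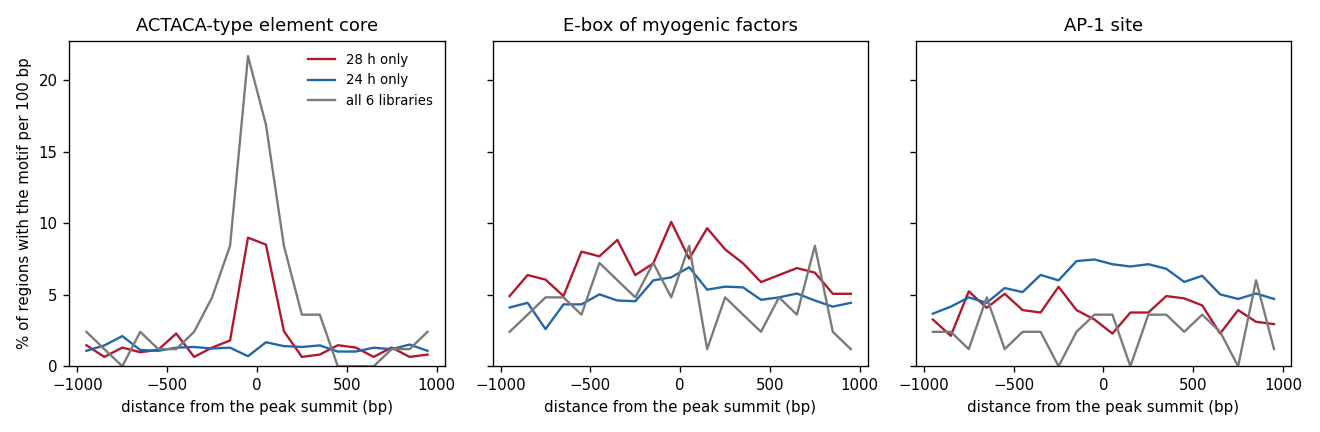
Percent of regions with a motif match in each 100 bp step from the peak summit, for the ACTACA-type core, the E-box of myogenic factors and the AP-1 site, in 28 h only (red), 24 h only (blue) and all-6-library regions (grey). The ACTACA-type core reaches 9.0% in the 100 bp before the summit at 28 h only and 0.703% at 24 h only; the AP-1 site is highest at 24 h only, at 7.47% in the same step.

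Of the 17 motifs searched, 10 were in a higher share of peaks in every 28 h library than in any 24 h library, 5 were in a lower share, and 2, the GAGAGAGA and CACACACA repeats, overlapped between the times. The 10 include ACTACA and TACANNTCC, which overlap and were added after recurring letters had been seen in these regions. Lower at 28 h were the AP-1 site, CCAAT, the D-box TTATGNAA, the MEF2 site and TATAAA, which was in 8.60% of peaks at 28 h and 23.5% at 24 h on average and in 10.7% of protein-coding promoters. The times also differed in GC content and in distance to a TSS, as given above, and the part of these in the motif shares was not tested.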

How the data were processed

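Conditions and replicate numbers were taken from the sample labels. Read trimming (BBDuk) and alignment (BWA 0.7.17, to mm10 and BDGP6) were run by the authors, who separated the species, removed duplicates with Picard, kept reads of mapping quality 30 or more with SAMtools 1.7 and called peaks in each library with MACS2 2.2.4 at q 0.05; which filter then gave the deposited lists is not given in the sources used here. Per peak, the deposited values are a fold enrichment (a ratio to the modelled background), a p-value and a q-value on the −log10 scale, and a score. No read depth is given, so precision rests on 3 replicates.

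Peaks were placed on GENCODE M21 and GRCm38.p6 with Python 3.11.15, numpy 2.4.6 and pandas 2.3.3. Regions were merged at an overlap of 1 bp. Libraries were compared by a two-sided exact permutation test over 20 splits with Benjamini-Hochberg adjustment, tested on simulated data. P-values measure only the spread between these libraries. Named promoters were the 15 (28 h only), 5 (24 h only) and 5 (all 6 libraries, ranked at 28 h) with the largest mean fold enrichment, up to 4 members of each list, list members at 24 h only where these were 10 or fewer, core clock genes with a peak, the distal regions with the largest mean and the members at the edge of the rule; the Rnu1a1, Snord16a and Zfp940 promoters and those after Zfp940 were chosen after their values were seen. Printed sequences were picked, with their motif matches known, from the 8 most enriched regions of each kind. The members, gene lists and motifs were chosen with earlier results of these data known. Alternatives were stricter q, the top 2000 peaks by q-value, a TSS window of 1 kb and protein-coding genes only. Others were overlapping replicate peaks, each library left out, a replicate block and, added after seeing the data, chromosome 15 left out.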

Additional observations from a re-analysis of the deposited data

How the results depend on the processing

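Of 131 recomputed values, 111 were kept, 12 counts moved and 8 differences changed sign. Counts of regions and promoters at 1 time only were kept if within 1.5 times, and differences if they had the same sign. A difference could shrink and still be kept, as for peaks per library, -10920 in the main setting and -4800 at q below 0.001. The number of promoters at 28 h only stayed within 1.5 times of 510 under all 15 alternatives run for it. At q below 0.001, regions numbered 382 at 28 h only and 885 at 24 h only, and promoters at 24 h only 136. With the top 2000 peaks per library, 234 regions and 38 promoters were at 24 h only. Promoters at 24 h only numbered 110 in a TSS window of 1 kb, 67 for protein-coding genes and 178 where replicate peaks had to overlap each other. Leaving out 1 library gave 1884 to 3230 regions at 24 h only (3230 without 24 h replicate 1, 2911 without replicate 2 and 3201 without replicate 3) and 275 to 430 promoters (430 without 24 h replicate 1). These rise by construction, since fewer libraries must hold a peak.

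The difference in promoters per library, 28 h minus 24 h, was -40 and turned positive at q below 0.01 (23), at q below 0.001 (209), with the top 2000 peaks (732), within 1 kb (310), for protein-coding genes (448) and, chosen after seeing the data, without chromosome 15 (27); it ranged from -67 to 2 when 1 library was left out, the 2 without 24 h replicate 2. The cause was not tested. The median fold enrichment difference was -0.113 with the top 2000 peaks. A top 2000 setting has no meaning for the number of peaks. Requiring an overlap share of 0.5 gives the same merged regions by construction.

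Same-numbered libraries did not deviate together (correlations -0.000592, -0.0113 and -0.0119 over 3908 promoters), so the numbers do not pair them. With the replicate block, an exact sign-flip test over 3 pairs, the difference in the share within 1 kb of a TSS was 23.1 percentage points. Its sign-flip p was 0.25, the smallest possible. The block leaves each difference of means as it was, so its values could not change direction and are among the 111 kept by construction.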

Other observations

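The 8-letter words most frequent at the centres of the 28 h only regions relative to their flanks were largely parts of the same element. CATTTCCC was in 45 of 611 centres (7.36%), against 1.64% of flanks, and AACTACAA in 39 (6.38%), against 0.736%. In the 83 regions with a peak in all 6 libraries, GAACTACA was in 15 (18.1%), against 0.602% of flanks. At 24 h only the leading word was AACAGCTG, in 53 of 1848 (2.87%), against 0.920% of flanks. These words were found by searching the same regions, and no test applies to them.

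Small nuclear RNA genes with peaks in all 6 libraries did not share a direction. Rnu11, of the minor spliceosome, had 8.44-, 7.42- and 10.7-fold enrichment at 28 h against 2.05, 3.08 and 3.29 at 24 h. Rnu5g had 6.79, 8.02 and 7.51 at 28 h against 7.12, 4.80 and 3.98 at 24 h, and these libraries overlapped. These genes were named after their values were seen.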
